A study of Mus musculus with 105 samples.

Results

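The genes described here are 48 genes whose products build ribosomes in the nucleolus, taken by symbol from the exon columns of a count table of 22322 mouse genes. All 48 were found, and all 48 had enough counts to be tested among the 10741 genes that passed the filter on low counts. They were sorted into 8 groups by the role of their products: the box C/D snoRNP (3 genes), the box H/ACA snoRNP (4), nucleolar chaperones (3), RNA polymerase I (3), the small-subunit processome (15), late small-subunit assembly (5), large-subunit assembly (12), and rRNA modification with a helicase (3).

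The libraries came from CD4+ T cells that were isolated by negative selection from the spleen and lymph nodes of C57BL/6J female mice 6 weeks old. Activated cells had been given magnetic beads that carry antibodies to CD3 and CD28, which engage the T cell receptor and its co-receptor, and resting cells had not. Cells of both states were left untreated or given triptolide at 25 µM, an inhibitor of RNA polymerase II initiation. Activated cells were also given DRB at 65 µM, which blocks the release of RNA polymerase II into elongation. Cycloheximide at 100 µg/ml, which stalls elongating ribosomes, or harringtonine at 2 µg/ml, which traps ribosomes at the start codon, was added alone or on top of a transcription inhibitor. Samples were taken at 0, 1 or 3 h, total RNA was extracted from equal numbers of cells, and the libraries hold counts of ERCC spike-ins, synthetic RNAs of known amount. The 35 groups, 21 of activated and 14 of resting cells, have 3 libraries each, numbered 2, 3 and 4. The labels call these biological replicates without tying a number to a mouse or a pool of mice, so the p-values measure the spread between these libraries. The libraries labelled triptolide 0 h and DRB 0 h were taken as the starting point of each inhibitor series, though the labels do not say how long an inhibitor had been present in them. Some introns were already lower there than in untreated cells. Those of Npm1, a member described below, stood at 165, 84.9 and 147 CPM in activated 0 h untreated cells, at 15.5, 32.8 and 33.9 CPM in the triptolide 0 h libraries and at 26.4, 33.0 and 26.2 CPM in the DRB 0 h libraries. Losses and percentages left are therefore relative to these libraries and do not cover any loss before them.

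A ribosome is assembled in the nucleolus from rRNA that RNA polymerase I transcribes as 1 long precursor. Small nucleolar RNAs in C/D and H/ACA particles guide methylation and pseudouridylation of that precursor, the small-subunit processome cuts and folds its first part, and a separate set of factors builds the large subunit. T cells leaving quiescence grow before they divide, and the genes of this pathway include textbook targets of the transcription factor MYC, which binds the E-box CACGTG.

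The E-box is shown for members that the results below return to, since these genes rose together on activation. A promoter entry, 250 bases before to 50 after the annotated start (RefSeq, GRCm38.p6), was found for 42 of the 48 members. Of these 42, 10 held CACGTG (23.8%), a palindrome that reads the same on both strands. Among all 27025 genes with an entry 8.09% held it, as did 14 of 67 other ribosome biogenesis genes (20.9%) and 6 of 59 cytosolic ribosomal protein genes (10.2%). Each line below gives a site 5′ to 3′ on the strand of the gene, with the motif in capitals.
Nop2 (chr6:125131812-125131839, plus strand): tgtccctggatCACGTGtgttccggtgc
Grwd1 (chr7:45830740-45830766, minus strand): ggccggagtcgCACGTGtgaaaccgga
Wdr43 (chr17:71616221-71616248, plus strand): gcccgggcgaaCACGTGgctgccgcgga
Imp4 (chr1:34439697-34439724, plus strand): cggtcttagacCACGTGacatcccaaat
Tsr1 (chr11:74898093-74898120, plus strand): cacttggtgcaCACGTGgactgcagaat
Ltv1 (chr10:13193093-13193120, minus strand): ccctgtggaccCACGTGtggagctgccg
The other 4 members with the motif were Pes1, Utp4, Utp18 and Utp20. A match describes these letters in this window only.

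Exon counts per library ran from 6300 to 6479221 with a median of 2135827, and ERCC counts from 660 to 388386. Resting 1 h triptolide replicate 3 (6300 exon counts) and activated 0 h untreated replicate 3 (141028) were far shallower than the next library (551975). Activated 3 h triptolide replicate 3 held 14.7 exon counts per ERCC count where the other libraries of its group held 8.44 and 6.90. A fit relative to the typical mRNA without the first 2 of these libraries, and fits on both scales without the last, moved no count of members called by more than 1.5 times. Counts per ERCC count were not refitted without the first 2, and no fit left out all 3. The activation marker Il2ra stood at 751, 251 and 385 CPM (counts per 1e6 counts, scaled with TMM factors) in activated 0 h untreated cells. In resting cells at 0 h its levels were 57.3, 45.2 and 39.9 CPM. Summed T cell markers lay at 1373 to 1697 CPM in these activated libraries and 1953 to 2259 CPM in the resting ones. Summed B cell markers (5 of 6 matched) lay at 6.13 to 144.5 CPM in activated and 93.3 to 741.4 CPM in resting 0 h libraries, and their part in the differences between the states was not tested. Summed myeloid markers lay at 19.03 to 36.77 CPM in activated and 21.4 to 32.1 CPM in resting cells, and the 3 NK cell markers at 0.58 to 6.13 and 1.07 to 2.33 CPM, with Ncr1 at 0 in both.

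Expression levels among the members differed widely. Averaged over all libraries and divided by the exonic length in kilobases, Npm1, the abundant nucleolar chaperone nucleophosmin, led with 195.8 CPM per kb. The large-subunit factor Noc2l followed with 104.9, then Wdr43 of the processome with 64.8 and Nop56, a core protein of the box C/D particle, with 64.2. The lowest levels per kb were those of Wdr12 (5.76 CPM per kb), a partner of Pes1 and Bop1 in large-subunit processing, and Gar1 (5.56 CPM per kb) of the box H/ACA particle. The length counts every annotated exonic base, 11955 for Wdr12, which can exceed that of the mRNA. Without division by length Wdr12 averaged 68.9 CPM, above Nob1 (27.5 CPM) and Rrs1 (29.2 CPM), and Gar1 was still lowest (9.54 CPM). The highest group mean was in activated untreated cells at 3 h for 39 of the 48 members, and the lowest was in resting cells after 3 h of triptolide for 23.

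Activation raised most of the pathway. At 0 h without inhibitor, 41 of the 48 members were called higher in activated than in resting cells (edgeR quasi-likelihood test, Benjamini-Hochberg adjusted p under 0.05 over all genes tested) and none lower, where 13.9% of all genes were called higher and 12.9% lower. The median log2 change of the members was 1.39, against -0.01 for all genes tested. At least 2-fold rises were seen for 32 members and were not counted over all genes.

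Rrp1b, a nucleolar large-subunit factor (ENSMUSG00000058392.11, mm10 chromosome 17, 32036100 to 32062865), had the smallest p. Its levels were 255, 141 and 138 CPM with activation, against 23.0, 21.4 and 15.3 CPM without. All activated libraries were above all resting libraries, and the log2 change was 3.23 ± 0.27 (SE, edgeR adjusted p = 2.23e-16). Npm1 (ENSMUSG00000057113.12, chromosome 11, 33152287 to 33163206), the member with the highest counts, did not follow. Its levels of 542, 484 and 456 CPM in activated cells overlapped 783, 488 and 491 CPM in resting cells (log2 change -0.25 ± 0.19, edgeR adjusted p = 0.365).

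All 3 box C/D genes rose, led by Nop58, a core protein of the particle (1.53 ± 0.23), and Nop56 rose by 0.88 ± 0.21. In the box H/ACA group 3 of 4 rose, among them Nhp2 (1.59 ± 0.25), an RNA-binding protein of the particle, and the pseudouridine synthase Dkc1 (1.47 ± 0.26). The fourth member, Nop10, had a log2 change of 0.17. Among RNA polymerase I subunits Polr1b, the second largest, rose by 2.70 ± 0.26, the largest subunit Polr1a by 0.62 ± 0.21, and Polr1c was not called (0.24).

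Of the 15 processome genes 14 rose, with Wdr43 at 1.38 ± 0.17 and Heatr1, a large scaffold protein also called UTP10 in yeast, at 1.34 ± 0.28. All 5 late small-subunit genes rose, from 1.48 to 2.14. Bysl, a factor of the late pre-40S particle, rose by 2.05 ± 0.28 and the GTPase-like factor Tsr1 by 1.88 ± 0.32. In large-subunit assembly 10 of 12 rose, including Noc2l (1.16 ± 0.20). Among the chaperones Nolc1, a phosphoprotein that binds both kinds of snoRNP, rose by 2.27 ± 0.33. The rRNA methyltransferase Nop2 rose by 1.85 ± 0.20 and the helicase Ddx21 by 1.61 ± 0.36. Members not called were Nvl (0.63), Wdr12 (0.53), Rrp8 (0.49), Imp3 (0.37), Polr1c (0.24), Nop10 (0.17) and Npm1.

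The libraries labelled triptolide 0 h gave a second comparison of the states. It is not a repeat of the untreated one, since some introns were already lower in these libraries, as given above for activated cells. There 38 members were called higher (15.4% of all genes) and 1 lower (13.5% of all genes; 28.9% in either direction), with a median of 1.12. Rrp1b stood at 190, 122 and 141 CPM in activated and 24.7, 17.4 and 22.8 CPM in resting cells, again without overlap (2.81 ± 0.26, edgeR adjusted p = 1.35e-14). The member called lower was Npm1, with 400, 394 and 548 CPM against 788, 532 and 564 CPM. These ranges overlapped by 1 library, and the log2 change was -0.49 ± 0.19 (edgeR adjusted p = 0.0413). Per ERCC count Npm1 was not called (-0.22), and 40 members were higher (17.9% of all genes), or 21 without replicate 4. Nop2 (1.97 ± 0.20), Polr1b (2.48 ± 0.25), Rrp9, a U3 snoRNP protein of the processome (1.98 ± 0.28), Nolc1 (2.12 ± 0.32), Bysl (1.91 ± 0.27), Nhp2 (1.66 ± 0.24) and Fbl, the methyltransferase of the box C/D particle (1.22 ± 0.25), had the smallest p in their groups.

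After 3 h in culture without inhibitor the states were further apart. In that comparison 47 of 48 members were called higher in activated cells (26.3% of all genes were) and none lower (27.5% of all genes), with a median log2 change of 2.56. At least 2-fold rises, not counted over all genes, were seen for 45 members. Wdr12 was not called (0.37). Grwd1, a WD-repeat factor of large-subunit assembly that binds ribosomal protein uL3 (ENSMUSG00000053801.15, chromosome 7, 45825223 to 45830944), stood at 183, 233 and 194 CPM in activated and at 9.42, 8.10 and 7.32 CPM in resting cells. The groups were far apart, with a log2 change of 4.64 ± 0.27 (edgeR adjusted p = 4.76e-26). Npm1 rose here, from 426, 522 and 602 CPM in resting to 1013, 728 and 993 CPM in activated cells, with no overlap (0.82 ± 0.19, edgeR adjusted p = 0.000168). The largest change was that of Rrp1b (4.78 ± 0.29). Polr1b (3.95 ± 0.27), Nolc1 (3.86 ± 0.35), Bysl (3.70 ± 0.29), Tsr1 (3.36 ± 0.34), Nop2 (3.26 ± 0.21) and Nhp2 (3.22 ± 0.25) also rose by more than 3 on the log2 scale. Dkc1 (2.63 ± 0.26), Noc2l (2.64 ± 0.20), Wdr43 (2.59 ± 0.18), Heatr1 (2.77 ± 0.29), Ddx21 (2.61 ± 0.37), Nop56 (2.34 ± 0.21) and Polr1a (1.80 ± 0.21) rose less.

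**Figure D1:**
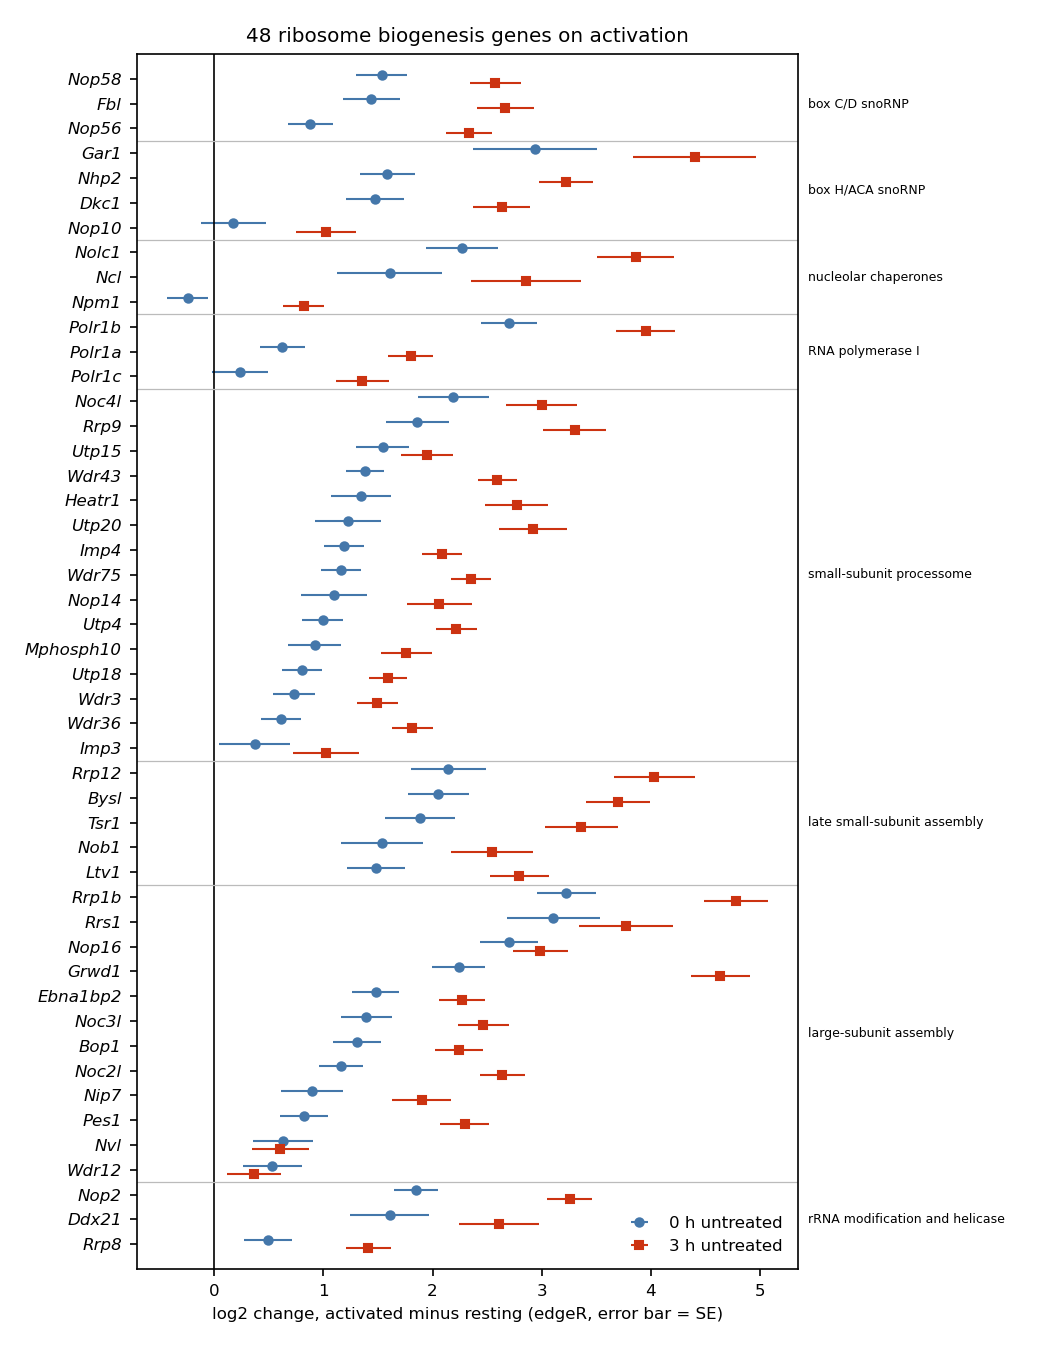
Log2 change of each of the 48 members, activated minus resting (x axis, error bars are SE, n = 3 libraries per group), at 0 h (circles) and 3 h (squares) without inhibitor, grouped by role. At 0 h 41 members were called higher and at 3 h 47, and the 3 h value is to the right of the 0 h value for most, with Npm1 moving from -0.25 to 0.82.

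The other genes of the pathway, a list of 85 further biogenesis factors, gave 47 called higher and 3 lower at 0 h (median 0.65) and 77 higher and 1 lower at 3 h (median 1.59). Ppan (2.80 ± 0.24), a large-subunit factor, and Pwp2 (1.95 ± 0.19), of the processome, had the smallest p at 0 h. Among 80 cytosolic ribosomal protein genes, which make the structural proteins of the same ribosome, none were called higher and 27 lower at 0 h (median -0.57). Mitochondrial ribosomal protein genes gave 10 higher and 4 lower of 77 (median 0.06). TMM scaling gives changes relative to the typical mRNA. Per ERCC count the median of all genes rose by 0.18 at 0 h and 0.60 at 3 h, and the calls among members were 40 higher (10.7% of all genes) and 48 higher (40.6% of all genes). The 0 h count on that scale was 26 without replicate 2 and 22 without replicate 4. The 10 members with the E-box were all called higher at 0 h, with a median of 1.3, as were 26 of the 32 without it, with a median of 1.43, and the difference was not tested.

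Within activated cells the pathway went on rising over 3 h of culture. Of the 48 members 24 were called higher at 3 h than at 0 h and none lower (6.05% and 7.56% of all genes), with a median of 0.70. Nop2 stood at 443, 436 and 454 CPM at 3 h and at 263, 147 and 174 CPM at 0 h. The times did not overlap, and the change was 1.13 ± 0.19 (edgeR adjusted p = 8.6e-06). Npm1 rose by 0.88 ± 0.19, from 542, 484 and 456 to 1013, 728 and 993 CPM, also without overlap. Noc2l (0.94 ± 0.20), Nhp2 (1.11 ± 0.24), Wdr75, a WD-repeat protein of the processome (0.79 ± 0.18), Polr1a (0.80 ± 0.21), Dkc1 (0.89 ± 0.25), Heatr1 (0.77 ± 0.27) and Nop56 (0.63 ± 0.20) were called as well. In late small-subunit assembly no member was: Bysl had a change of 0.68 ± 0.26 and Tsr1 of 0.64 ± 0.30. The count depended on the fit, with 37 called with the replicate number as a block, 44 with a separate block for each number and cell state, and 0 without replicate 4 (with a median of 0.54), while 18 were called higher per ERCC count (5.49% of all genes). On that scale the count was 4 without replicate 2, 30 without replicate 3 and 0 without replicate 4.

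Resting cells kept for the same 3 h gave 6 members called lower and 1 higher (3.36% and 3.03% of all genes, 6.39% together), with a median of -0.49. Grwd1 stood at 9.42, 8.10 and 7.32 CPM at 3 h and 18.8, 17.2 and 25.6 CPM at 0 h, which did not overlap (-1.35 ± 0.28, edgeR adjusted p = 0.000768). Npm1 overlapped between the times, with 426, 522 and 602 against 783, 488 and 491 CPM (-0.18 ± 0.19). Nop56 (-0.83 ± 0.21), Utp4 of the processome (-0.77 ± 0.19), Rrp12 (-1.16 ± 0.37), Pes1 (-0.72 ± 0.22) and Bysl (-0.97 ± 0.31) were the others called lower. Wdr12 was called higher (0.93 ± 0.26), with libraries that overlapped. No member was called without replicate 4, and Grwd1 alone was per ERCC count (1.44% of all genes were called lower), where the count was 3 without replicate 2, 4 without replicate 3 and 0 without replicate 4.

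With transcription blocked, mRNA is no longer made and the change over time reads its loss. Relative to the typical mRNA, 33 of the 48 members were called lower after 3 h of triptolide in activated cells and 3 higher, where 26.2% and 21.5% of all genes were. The median was -1.15, against -0.03 for all genes, and 28 members fell at least 2-fold, which was not counted over all genes. Wdr75 (ENSMUSG00000025995.15, chromosome 1, 45795166 to 45823619) had the smallest p: 35.1, 38.3 and 27.4 CPM at 3 h and 146, 121 and 145 CPM at 0 h. The times were well apart (-2.05 ± 0.20, edgeR adjusted p = 1.55e-13). Npm1 stood at 540, 273 and 531 CPM at 3 h and 400, 394 and 548 CPM at 0 h, which overlapped (0.01 ± 0.19).

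By role, 13 of the 15 processome genes fell, led by Mphosph10, a subunit of the U3-associated Mpp10 complex (-3.30 ± 0.33), while Utp20, a very large scaffold protein, rose relative to the typical mRNA (0.85 ± 0.29) and Heatr1 was not called (-0.39 ± 0.27). In late small-subunit assembly 4 of 5 fell, among them the endonuclease Nob1 (-2.73 ± 0.46), Bysl (-2.34 ± 0.32) and Tsr1 (-2.07 ± 0.35). The rRNA enzymes fell without exception, with Nop2 at -2.03 ± 0.21 and Ddx21 at -0.88 ± 0.36. In large-subunit assembly 8 of 12 fell, with Rrs1, a factor that brings in the 5S RNP (-2.93 ± 0.52), Grwd1 (-1.75 ± 0.25) and Noc2l (-0.81 ± 0.20) among them, and the AAA ATPase Nvl rose (1.06 ± 0.27).

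Among core snoRNP proteins Nop56 fell (-2.06 ± 0.22), while Fbl did not pass the test (0.15). Nhp2 fell (-1.05 ± 0.25), Dkc1 did not pass (0.06 ± 0.25), and Nop10 rose relative to the typical mRNA (0.82 ± 0.29). Among the chaperones Nolc1 fell (-1.73 ± 0.33) and Npm1 and Ncl (0.46) were not called. Polr1c fell (-1.02 ± 0.26), and Polr1a (0.35 ± 0.20) and Polr1b (0.05) were not called. Each of Nop10, Nvl and Utp20 had a negative change per ERCC count (-0.86, -0.61 and -0.82), as all genes did at the median (-1.68), and on that scale 46 members were called lower and none higher (77.7% and 1.85% of all genes). Npm1, Dkc1 and Polr1a, not called relative to the typical mRNA, were among those called lower per ERCC count (-1.65, -1.65 and -1.30).

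The loss was under way at 1 h of triptolide, when 22 members were called lower and none higher (15.1% and 9.12% of all genes), with a median of -0.50. Mphosph10 (ENSMUSG00000030521.10, chromosome 7, 64376527 to 64392268) had already gone from 49.4, 55.6 and 60.9 CPM to 1.80, 22.6 and 6.71 CPM, without overlap (-2.61 ± 0.29, edgeR adjusted p = 2.97e-11). Npm1 was not called at 449, 535 and 685 against 400, 394 and 548 CPM (0.32 ± 0.19), and the groups overlapped. Rrp8, an rRNA methyltransferase (-2.11 ± 0.26), Grwd1 (-1.90 ± 0.24), Tsr1 (-1.62 ± 0.33), Nop58 (-1.12 ± 0.23) and Nolc1 (-0.84 ± 0.31) had fallen too. Heatr1 (-0.01 ± 0.27), Noc2l (-0.20 ± 0.19), Polr1a (0.15 ± 0.20), Dkc1 (0.14 ± 0.25), Nop10 (0.60 ± 0.29) and Ddx21 (-0.49 ± 0.35) had not been called by then. The count was 14 without replicate 4 and 36 per ERCC count (44.4% of all genes).

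DRB, which stops RNA polymerase II by another route, gave 28 members lower and 1 higher at 3 h (21.9% and 17.9% of all genes, 39.8% together), with a median of -0.87. Utp4 stood at 20.9, 21.5 and 15.5 CPM against 121, 82.7 and 92.6 CPM at 0 h, with no overlap (-2.37 ± 0.21, edgeR adjusted p = 1.81e-14). Npm1 at 466, 407 and 444 CPM lay inside its 0 h range of 548, 370 and 467 CPM (-0.07 ± 0.19). Mphosph10 (-3.28 ± 0.32), Rrp8 (-3.06 ± 0.29), Nop56 (-2.41 ± 0.22), Bysl (-1.98 ± 0.30), Grwd1 (-1.58 ± 0.24), Tsr1 (-1.23 ± 0.32), Nolc1 (-0.98 ± 0.32) and Noc2l (-0.76 ± 0.20) fell. Nop10 was the member called higher (1.06 ± 0.29). Per ERCC count 45 members were called lower (78.2% of all genes) and Nop10 was not called (-0.56).

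At 1 h of DRB 17 members were lower and 1 higher (10.5% and 5.4% of all genes), with a median of -0.32. Rrp8 fell from 40.1, 46.8 and 41.7 CPM to 8.71, 12 and 6.42 CPM, without overlap (-2.26 ± 0.25, edgeR adjusted p = 3.28e-10). Npm1 was higher at 721, 608 and 710 against 548, 370 and 467 CPM, with no overlap (0.56 ± 0.19, edgeR adjusted p = 0.0327), but not per ERCC count (-0.14). The number of members called was 9 without replicate 2, 4 without replicate 4, and 28 per ERCC count (36.8% of all genes lower), or 8 on that scale without replicate 4.

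Resting cells also lost these mRNAs under triptolide. After 3 h 30 members were called lower and 1 higher (30.3% and 26.6% of all genes), with a median of -1.19. Wdr36, a WD-repeat protein of the processome, stood at 26.6, 18.8 and 26.9 CPM against 198, 122 and 134 CPM at 0 h. There was no overlap, and the change was -2.65 ± 0.22 (edgeR adjusted p = 6.96e-17). Npm1 fell here, from 788, 532 and 564 to 409, 326 and 365 CPM, also without overlap (-0.78 ± 0.19, edgeR adjusted p = 0.000381).

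The largest falls in resting cells were those of Rrp8 (-4.19 ± 0.39), Mphosph10 (-4.17 ± 0.42) and Utp15 (-2.99 ± 0.34). At 3 h Rrp8 and Mphosph10 averaged 1.72 and 1.91 CPM, so their changes rest on few counts. Tsr1 (-2.11 ± 0.40), Nop10 (-1.95 ± 0.37), Nolc1 (-1.82 ± 0.43), Nop56 (-1.68 ± 0.22), Dkc1 (-1.29 ± 0.32) and Noc2l (-0.49 ± 0.20) also fell. Nvl was called higher (1.33 ± 0.27), and the RNA polymerase I genes Polr1a (0.30 ± 0.20), Polr1b (0.53 ± 0.27) and Polr1c (-0.21) were not called. Per ERCC count 47 members were lower (75.5% of all genes) and Nvl was not called (-0.41).

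The difference between the states in this 3 h change was called for 3 members, all with less loss in activated cells (4.07% of all genes, with 2.4% the other way and 6.47% together). Nop10 (ENSMUSG00000027133.3, chromosome 2, 112261926 to 112263269), a small protein of the box H/ACA particle, went from 25.0, 47.4 and 51.2 CPM to 65.6, 43.5 and 103 CPM in activated cells. In resting cells it went from 42.9, 37.7 and 41.8 CPM to 9.97, 6.91 and 13.8 CPM. The activated libraries overlapped between the times and the resting ones did not, and the difference of changes was 2.77 ± 0.47 (edgeR adjusted p = 3.98e-05), with 2.86 per ERCC count. Utp15, of the processome (1.48 ± 0.45, edgeR adjusted p = 0.0292), and Dkc1 (1.34 ± 0.41, edgeR adjusted p = 0.031) were the others, and neither was called per ERCC count, where Nop10 was the only member called higher (1.76% of all genes). Npm1 had a difference of 0.79 ± 0.27 (edgeR adjusted p = 0.0605), Rrp8 of 1.62 ± 0.58 (edgeR adjusted p = 0.12) and Nob1 of -1.78 ± 0.69 (edgeR adjusted p = 0.11). Without replicate 4, 1 member was called. With the replicate number as a block 5 were called, 4 with less and 1 with more loss in activated cells. A separate block for each number and cell state gave 7, 4 with less and 3 with more loss.

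Set against the spike-ins, the amount of each mRNA left can be read as a percentage of its level at 0 h of the same inhibitor. The median member kept 38.5% at 1 h and 14.6% at 3 h of triptolide in activated cells, where the median of all genes tested kept 56.9% and 32.8%. Under DRB the members kept 49.3% and 18.9%, against 61.1% and 33.7%, and in resting cells 13.9% after 3 h of triptolide, against 29.3%. Cytosolic ribosomal protein mRNAs kept 78.8%, 84.6% and 84.4% at 3 h in the 3 series.

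In those series 31, 25 and 33 of the 48 members kept under 20%, but the share of all genes that did was not counted, so these counts stand without a comparison. Nop2 held 6.503, 6.305 and 4.41 counts per 1000 ERCC counts at 0 h of triptolide in activated cells and 0.357, 0.876 and 0.321 at 3 h, with no overlap, so 9.02% was left. The value of 0.876 came from replicate 3, the library described above as high in exon counts per ERCC count. Percentages left in this group include that library and were not recomputed without it. The lowest was Mphosph10, with 3.01% in activated cells under triptolide, 3.54% under DRB and 1.52% in resting cells. The highest was Nvl under triptolide in both states, with 66.2% in activated and 75.4% in resting cells, and Nop10 under DRB with 67.9%. Nop10 kept 55.6% under triptolide in activated cells and 7.67% in resting cells. Fewer mRNA molecules per cell and fewer cells that hold them cannot be told apart in these bulk libraries.

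**Figure D2:**
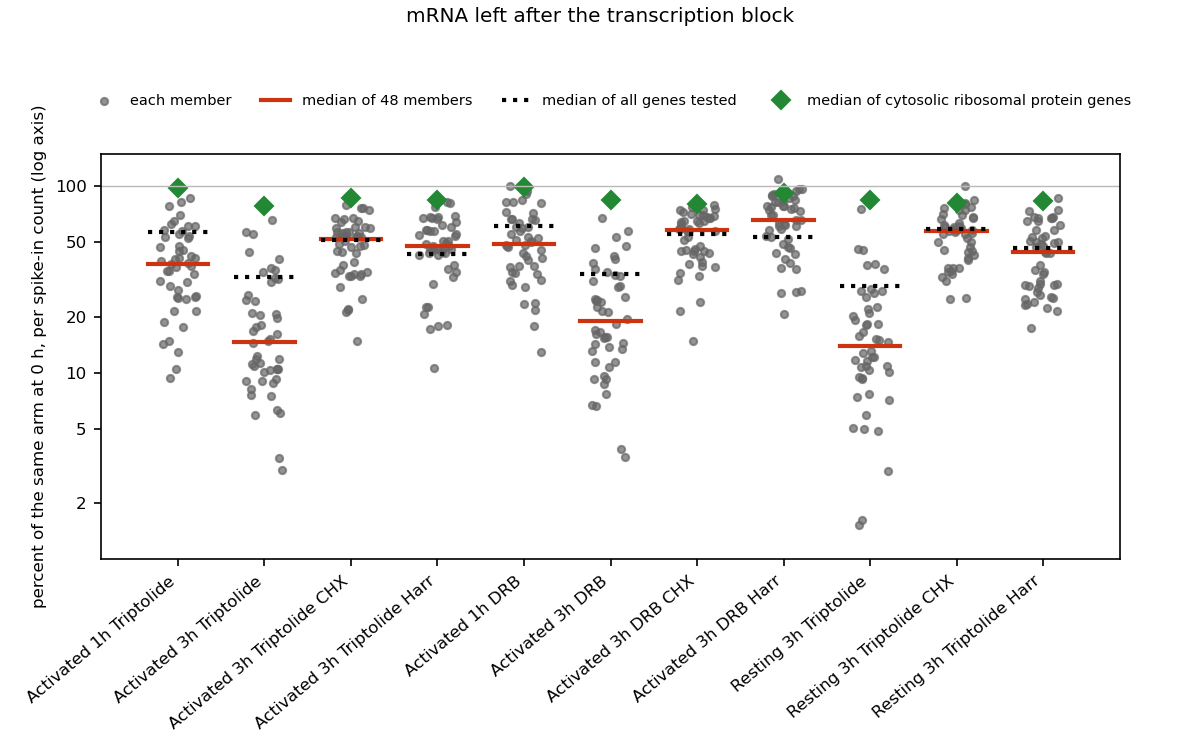
Percentage of the 0 h level left per spike-in count (log axis) for each of the 48 members (grey points) after the transcription inhibitors, with and without a translation inhibitor, as ratios of group means over 3 libraries. Red bars mark the median of the members, dotted lines that of all genes tested and green diamonds that of cytosolic ribosomal protein genes. The members' median is below that of all genes with a transcription inhibitor alone (14.6% against 32.8% after 3 h of triptolide in activated cells) and near it with cycloheximide added (52.3% against 51.8%).

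The 85 other biogenesis genes gave 60 called lower and 2 higher after 3 h of triptolide in activated cells (median -1.04) and 65 lower and 4 higher in resting cells (median -1.11). Nifk (-2.87 ± 0.28) and Lsg1 (-2.48 ± 0.25), both of large-subunit maturation, had the smallest p in activated cells. Among cytosolic ribosomal protein genes 76 of 80 were called higher and 1 lower relative to the typical mRNA (median 1.21), and per ERCC count they had 78.8% left at the median. Of the mitochondrial ribosomal protein genes 45 of 77 were lower and 4 higher.

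Blocking translation at the same time asks how much of this loss needs translating ribosomes. With cycloheximide added to triptolide for 3 h in activated cells, 32 members were higher than with triptolide alone and 1 lower (15.8% and 11.5% of all genes), with a median of 1.07 against -0.08 for all genes. Wdr75 stood at 172, 158 and 222 CPM with both inhibitors and at 35.1, 38.3 and 27.4 CPM with triptolide alone. The groups did not overlap, and the change was 2.47 ± 0.20 (edgeR adjusted p = 1.32e-16). Npm1 was higher too, with 607, 611 and 750 against 540, 273 and 531 CPM and no overlap (0.54 ± 0.19, edgeR adjusted p = 0.0256). These comparisons share the triptolide 3 h libraries with the loss described above.

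In the processome 12 of 15 were higher with cycloheximide, including Heatr1 (0.79 ± 0.27), and in large-subunit assembly 8 of 12, with Ebna1bp2 (1.70 ± 0.22) and Noc2l (1.35 ± 0.20) among them. Nop56 (2.30 ± 0.22), Nop2 (1.89 ± 0.20), Nolc1 (1.73 ± 0.33), Tsr1 (1.65 ± 0.34), Polr1c (1.22 ± 0.26) and Nhp2 (1.12 ± 0.25) led the other roles. Nvl was lower (-0.67 ± 0.26, edgeR adjusted p = 0.0488), and it was not called per ERCC count. Members not called included Dkc1 (-0.13 ± 0.25), Polr1a (0.06 ± 0.20) and Ddx21 (0.74 ± 0.35). Per ERCC count 35 members were higher (34.6% of all genes), or 22 without replicate 4, and the median of all genes was 0.62. The median member then kept 52.3% of its 0 h level, and Imp3, a processome protein of the Mpp10 complex, kept the least, 14.8%.

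Harringtonine, which acts at initiation, gave a like count when added to triptolide in activated cells: 32 members higher and none lower (14.8% and 9.84% of all genes), with a median of 1.19. Wdr75 reached 227, 286 and 271 CPM against 35.1, 38.3 and 27.4 CPM, with no overlap (2.98 ± 0.20, edgeR adjusted p = 6.97e-21). Npm1 reached 646, 792 and 655 CPM against 540, 273 and 531 CPM, also without overlap (0.63 ± 0.19). Nop56 (2.74 ± 0.22), Tsr1 (2.11 ± 0.35), Nop2 (2.09 ± 0.21), Nolc1 (1.84 ± 0.34), Noc2l (1.74 ± 0.20), Polr1c (1.44 ± 0.26), Nhp2 (1.01 ± 0.25) and Ddx21 (1.00 ± 0.36) were higher, and Heatr1 (0.61 ± 0.27), Polr1a (0.32 ± 0.20) and Dkc1 (-0.29 ± 0.26) were not called. The median member kept 47.96% of its 0 h level per ERCC count.

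With DRB as the transcription inhibitor, cycloheximide raised 25 members and lowered none (10.5% and 7.14% of all genes), with a median of 0.75. Nop56 (ENSMUSG00000027405.15, chromosome 2, 130274430 to 130279313) stood at 310, 303 and 381 CPM against 65.5, 48.14 and 48.01 CPM, with no overlap (2.61 ± 0.23, edgeR adjusted p = 3.69e-15). Npm1 lay at 571, 572 and 599 against 466, 407 and 444 CPM, apart but not called (0.40 ± 0.19, edgeR adjusted p = 0.132). Rrp8 (2.47 ± 0.32), Wdr75 (2.10 ± 0.20), Nob1 (1.40 ± 0.48), Nolc1 (1.27 ± 0.32), Noc2l (1.23 ± 0.20), Tsr1 (0.91 ± 0.33), Nhp2 (0.78 ± 0.24) and Polr1c (0.73 ± 0.26) were higher. Heatr1 (0.64 ± 0.27), Dkc1 (-0.19 ± 0.26), Ddx21 (-0.11 ± 0.35) and Polr1a (-0.07 ± 0.20) were not called. Without replicate 4 the count was 14, and per ERCC count 33 were higher (29.6% of all genes), or 16 without replicate 4.

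Harringtonine added to DRB raised 28 members and lowered none (11.3% and 7.37% of all genes), with a median of 1.02. Wdr75 stood at 203, 224 and 276 CPM against 38.0, 34.2 and 30.9 CPM, with no overlap (2.76 ± 0.20, edgeR adjusted p = 1.53e-19). Npm1 at 745, 600 and 855 CPM was above 466, 407 and 444 CPM in every library (0.74 ± 0.19). Nop56 rose by 3.14 ± 0.23, Rrp8 by 2.76 ± 0.30, Ebna1bp2 by 1.79 ± 0.22, Nolc1 by 1.52 ± 0.32, Bysl by 1.51 ± 0.31, Noc2l by 1.51 ± 0.20, Tsr1 by 1.33 ± 0.33, Polr1c by 1.04 ± 0.25 and Heatr1 by 0.83 ± 0.27. None of the 4 box H/ACA genes was called, with Nhp2 at 0.50 ± 0.24 and Dkc1 at 0.04 ± 0.25. The median member kept 66.2% of its 0 h level per ERCC count, against 53.3% for all genes.

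In resting cells cycloheximide added to triptolide gave 27 members higher and 1 lower (18.8% and 16.4% of all genes), with a median of 0.95. Wdr36 stood at 127, 93.7 and 135 CPM against 26.6, 18.8 and 26.9 CPM with triptolide alone, without overlap (2.30 ± 0.22, edgeR adjusted p = 9.26e-14). Npm1 stood at 598, 596 and 664 CPM against 409, 326 and 365 CPM, also without overlap (0.76 ± 0.19). Nop2 (2.32 ± 0.25), Nolc1 (1.83 ± 0.44), Nop56 (1.69 ± 0.22), Ltv1, a factor of the late pre-40S particle (1.37 ± 0.35), Tsr1 (1.33 ± 0.42), Noc2l (1.24 ± 0.20) and Nop10 (1.14 ± 0.39) were higher. Nvl was lower (-0.86 ± 0.27), with 0.05 per ERCC count. Polr1a (0.03 ± 0.21), Polr1b (-0.28 ± 0.27), Dkc1 (0.61 ± 0.34), Heatr1 (0.66 ± 0.28) and Ddx21 (0.78 ± 0.37) were not called. Per ERCC count 41 members were higher (46% of all genes).

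Harringtonine added to triptolide in resting cells raised 24 members and lowered none (14.6% and 9.44% of all genes), with a median of 0.87. Wdr75 stood at 80.0, 101 and 109 CPM against 21.6, 20.73 and 19.98 CPM, with no overlap (2.22 ± 0.22, edgeR adjusted p = 2.28e-13). Npm1 stood at 594, 691 and 703 against 409, 326 and 365 CPM, with no overlap (0.86 ± 0.19). Nop2 (2.19 ± 0.25), Nop56 (1.83 ± 0.22), Nop10 (1.37 ± 0.38), Noc2l (1.35 ± 0.20) and Tsr1 (1.25 ± 0.42) were higher, and Polr1c (0.40 ± 0.26), Polr1a (0.15 ± 0.21), Dkc1 (0.31 ± 0.35), Heatr1 (0.47 ± 0.29) and Ddx21 (0.88 ± 0.37) were not called.

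**Figure D3:**
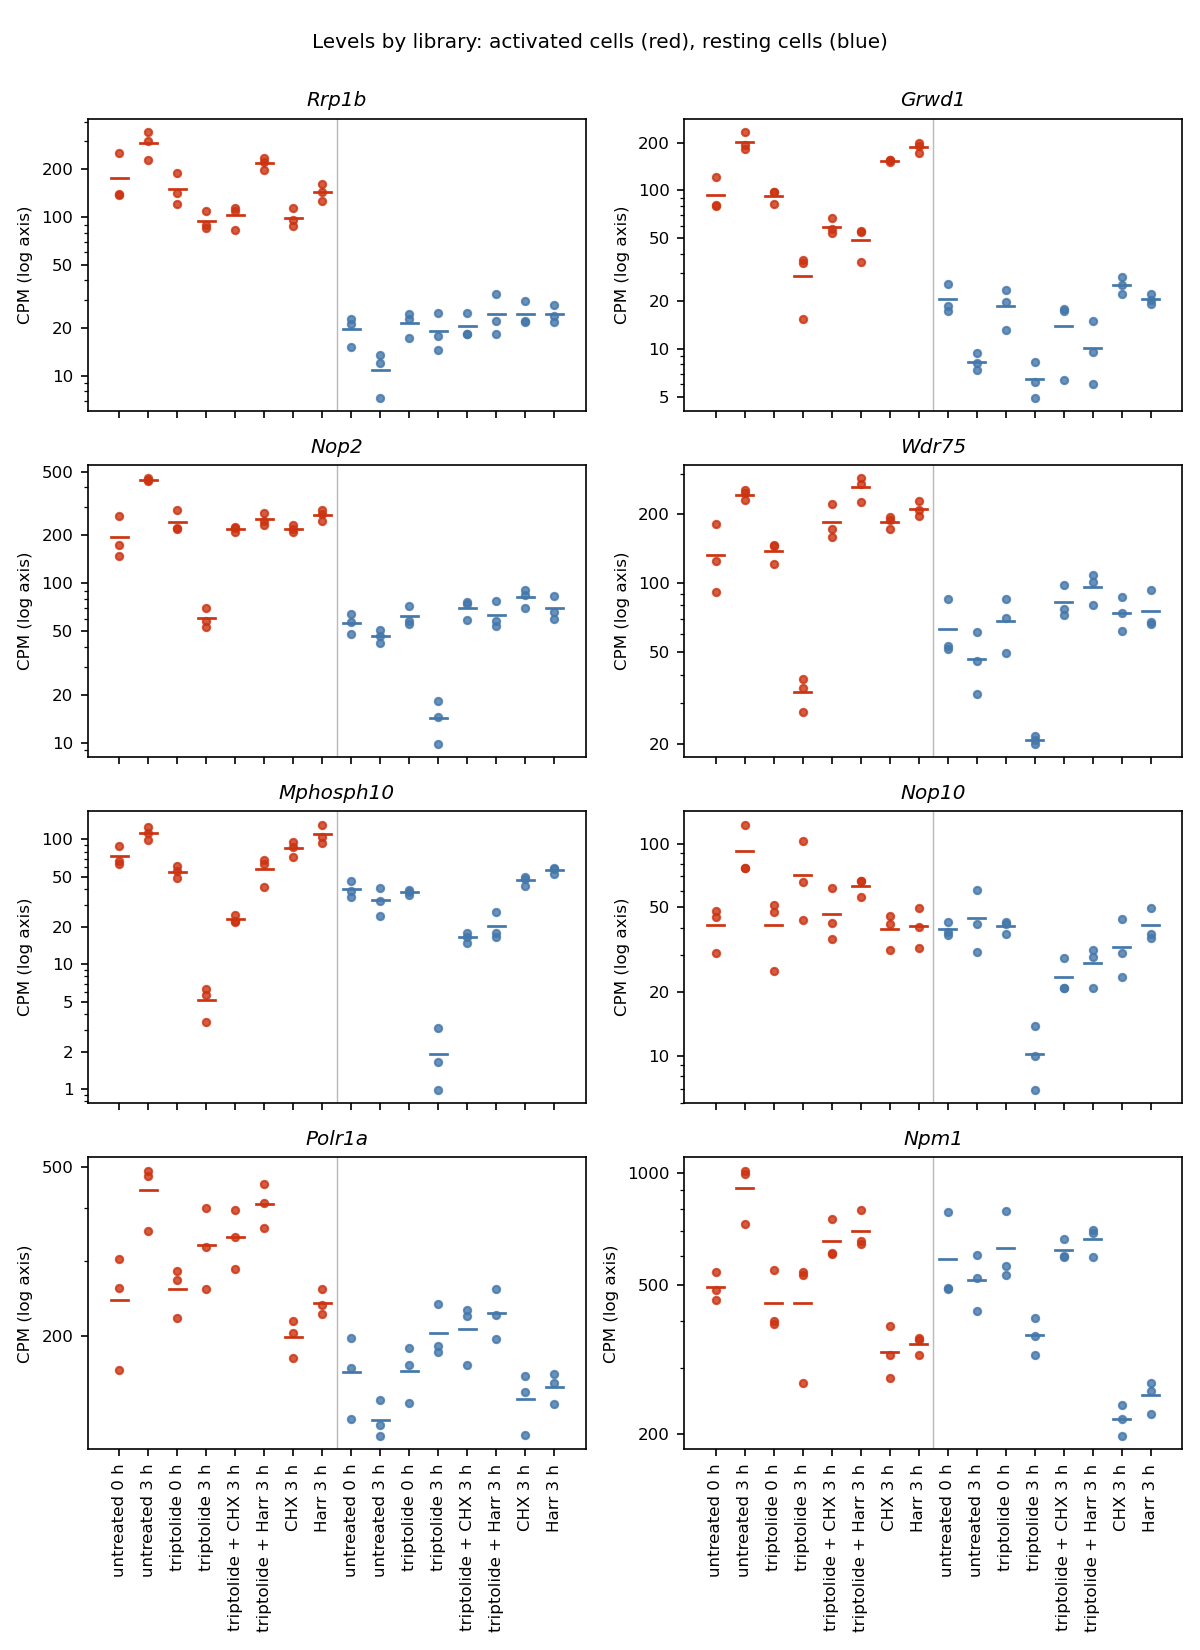
CPM of 8 members (log axis) in each library of activated (red) and resting (blue) cells, with bars at the means of 3 libraries, for untreated cells, triptolide, triptolide with cycloheximide (CHX) or harringtonine (Harr), and each translation inhibitor alone. Wdr75 drops to between 27.4 and 38.3 CPM after 3 h of triptolide in activated cells and is between 158 and 286 CPM with a translation inhibitor added, and Nop10 in resting cells is between 6.91 and 13.8 CPM after 3 h of triptolide.

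In the list of 85 other biogenesis genes, 54 were higher and none lower with cycloheximide added to triptolide in activated cells (median 1.00), and 62 were higher and 2 lower in resting cells (median 1.11). Nifk (2.72 ± 0.28) and Cebpz (1.85 ± 0.20) had the smallest p in activated cells. Harringtonine added to triptolide in activated cells gave 57 higher and none lower (median 1.13). Cytosolic ribosomal protein genes went the other way relative to the typical mRNA with cycloheximide, with 19 lower and none higher in activated and 70 lower and none higher in resting cells.

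With cycloheximide alone, most members that were called were lower in activated cells and higher in resting cells. After 3 h of cycloheximide without a transcription inhibitor, activated cells had 30 members lower than untreated cells at 3 h and 1 higher (15% and 15% of all genes), with a median of -0.74. Resting cells had 21 higher and 1 lower (13.8% and 12.5% of all genes), with a median of 0.55. The untreated 3 h cells used as reference had themselves moved from 0 h. The members' median change there was 0.70 in activated and -0.49 in resting cells. They are also the reference for harringtonine alone below, and cells given a translation inhibitor alone were not compared with 0 h.

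In activated cells Nop16, a large-subunit factor (ENSMUSG00000025869.10, chromosome 13, 54584185 to 54590090), stood at 39.7, 35.7 and 32.4 CPM with cycloheximide and 134, 127 and 104 CPM without. The groups were apart (-1.76 ± 0.23, edgeR adjusted p = 2.69e-09). Npm1 fell from 1013, 728 and 993 CPM to 324, 388 and 281 CPM, also without overlap (-1.46 ± 0.19, edgeR adjusted p = 3.81e-09). All 4 box H/ACA genes fell, among them Nhp2 (-1.63 ± 0.23) and Dkc1 (-1.63 ± 0.25), as did all 3 chaperones. Polr1b (-1.43 ± 0.23), Polr1a (-1.15 ± 0.20), Heatr1 (-1.25 ± 0.27), Fbl (-1.04 ± 0.24), Nop2 (-1.02 ± 0.19), Bysl (-0.80 ± 0.24) and Noc2l (-0.54 ± 0.19) fell. Ltv1 was the member that rose (0.62 ± 0.23, edgeR adjusted p = 0.0326), while Nop56 (-0.40 ± 0.20), Ddx21 (-0.84 ± 0.35) and Tsr1 (-0.21 ± 0.29) were not called. Per ERCC count the median of all genes rose by 0.47 and 9 members were lower and 1 higher (2.8% and 25.2% of all genes). Without replicate 4 the count of members called was 13, and 0 per ERCC count.

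In resting cells Npm1 had the smallest p and fell, to 219, 197 and 238 CPM from 426, 522 and 602 CPM, without overlap (-1.24 ± 0.19, edgeR adjusted p = 6.86e-07). It was the only member lower there, and per ERCC count it was not called (-0.17). Grwd1 (1.64 ± 0.27), Rrp12, a HEAT-repeat export factor (1.17 ± 0.36), Rrp8 (1.08 ± 0.21), Nop56 (1.03 ± 0.20), Noc2l (0.97 ± 0.20) and Imp4 of the Mpp10 complex (0.96 ± 0.18) rose. No box H/ACA or RNA polymerase I gene was called, with Dkc1 at -0.64 ± 0.27 and Polr1c at 0.27 ± 0.24, nor were Heatr1 (-0.23 ± 0.28), Ddx21 (0.10 ± 0.36) and Tsr1 (0.76 ± 0.32). Per ERCC count 41 members were higher (61.1% of all genes), with a median of 1.62 against 1.02 for all genes. Without replicate 4 the count was 7.

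The difference between the states was itself tested: 33 members had a more negative cycloheximide change in activated cells and none a more positive one (8.67% and 7.95% of all genes), with a median of -1.19. This difference includes the opposite moves of the untreated 3 h cells given above, so it does not show the direction of change from 0 h. Rrp1b had the smallest p. It went from 343, 230 and 301 CPM to 114, 88.4 and 95.6 CPM in activated cells and from 12.1, 13.5 and 7.32 CPM to 29.7, 21.8 and 22.1 CPM in resting cells. Neither pair of groups overlapped, and the difference of changes was -2.76 ± 0.37 (edgeR adjusted p = 5.82e-08). Rrp9 (-2.22 ± 0.39), Rrp12 (-2.08 ± 0.48), Nhp2 (-2.04 ± 0.34), Nolc1 (-1.86 ± 0.45), Nop2 (-1.83 ± 0.27), Polr1b (-1.69 ± 0.35), Noc2l (-1.50 ± 0.27), Nop56 (-1.43 ± 0.29), Polr1a (-1.31 ± 0.29) and Dkc1 (-0.99 ± 0.36) differed in the same direction. Npm1 did not pass (-0.22 ± 0.27, edgeR adjusted p = 0.642): it fell in both states. Nor did Tsr1 (-0.97 ± 0.44), Ddx21 (-0.93 ± 0.50) or Heatr1 (-1.02 ± 0.39). Per ERCC count 39 members differed, all in that direction (14.2% of all genes), but without replicate 4 the counts were 10 relative to the typical mRNA and 0 per ERCC count.

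Harringtonine alone gave 22 members lower and 1 higher in activated cells (15.5% and 15.5% of all genes), with a median of -0.57. Nop16 stood at 40.6, 38.0 and 34.1 CPM against 134, 127 and 104 CPM, with no overlap (-1.70 ± 0.23, edgeR adjusted p = 5.43e-09). Npm1 stood at 361, 326 and 356 CPM against 1013, 728 and 993 CPM, with no overlap (-1.39 ± 0.19, edgeR adjusted p = 1.24e-08). Dkc1 (-1.62 ± 0.25), Nhp2 (-1.47 ± 0.22), Polr1b (-1.46 ± 0.23), Heatr1 (-1.31 ± 0.27), Fbl (-0.93 ± 0.24), Polr1a (-0.88 ± 0.20) and Nop2 (-0.73 ± 0.18) fell, and Ltv1 rose (0.68 ± 0.23). Nop56 (-0.39 ± 0.20), Noc2l (-0.24 ± 0.19), Ddx21 (-0.62 ± 0.34) and Tsr1 (0.14 ± 0.29) were not called. Per ERCC count 8 members were lower and 2 higher (3.63% and 20.4% of all genes), and 11 were called without replicate 4 (0 per ERCC count).

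In resting cells harringtonine alone gave 17 members higher and 1 lower (9.84% and 10.6% of all genes), with a median of 0.50. Imp4 stood at 121, 117 and 131 CPM against 63.3, 60.3 and 55.5 CPM, with no overlap (1.05 ± 0.18, edgeR adjusted p = 8.43e-06). Npm1 fell to 260, 225 and 274 CPM from 426, 522 and 602 CPM, with no overlap (-1.03 ± 0.19, edgeR adjusted p = 3.47e-05), but its change per ERCC count was 0.03 and not called. Grwd1 (1.34 ± 0.27), Rrp8 (1.04 ± 0.21), Bysl (0.97 ± 0.30), Nop56 (0.94 ± 0.20), Tsr1 (0.88 ± 0.32) and Noc2l (0.85 ± 0.20) rose. Gar1 (1.43 ± 0.66), Dkc1 (-0.53 ± 0.27), Polr1c (0.33 ± 0.24), Polr1a (0.26 ± 0.20), Heatr1 (-0.20 ± 0.28) and Ddx21 (0.31 ± 0.36) were not called. With the replicate number as a block 28 members were called, and 31 with a separate block for each number and cell state. Without replicate 4 the count was 5, and per ERCC count 43 were higher (60.1% of all genes).

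**Figure D4:**
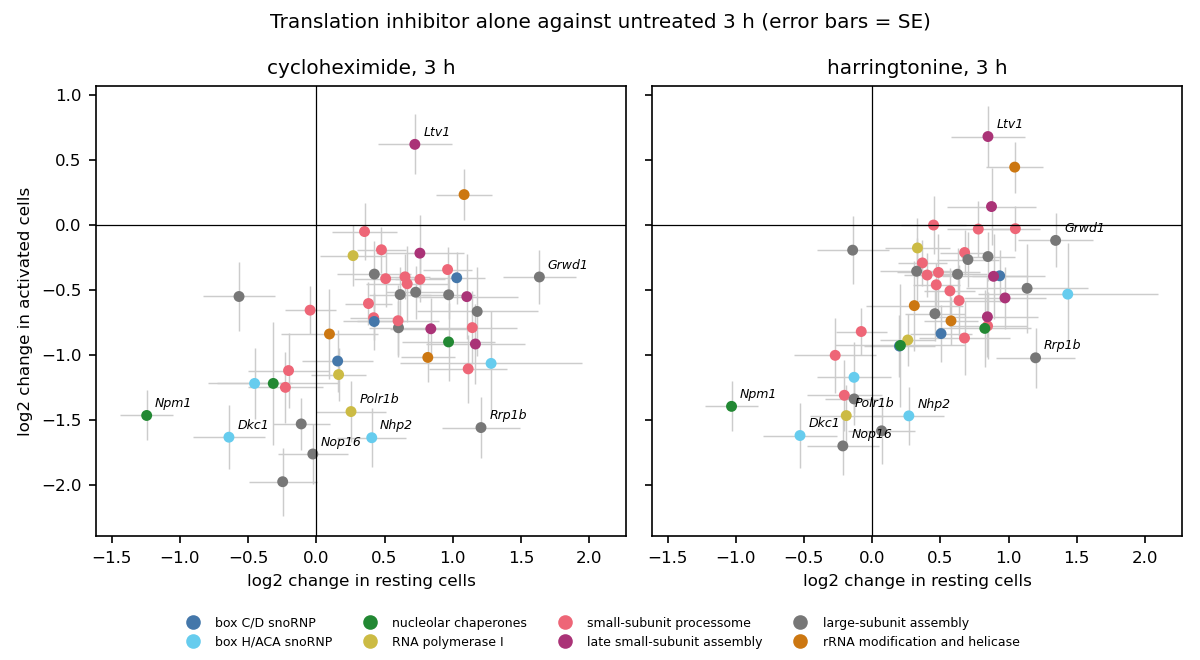
Log2 change of each member after 3 h of cycloheximide (left) or harringtonine (right) alone against untreated 3 h cells, in resting cells (x axis) and activated cells (y axis), with error bars of 1 SE and colours by role. Most points are in the lower right part (below 0 in activated, above 0 in resting cells), Npm1 is in the lower left (-1.46 and -1.24 with cycloheximide), and Ltv1 is above 0 in activated cells (0.62). In the untreated 3 h cells the members' median had moved from 0 h by 0.70 in activated and -0.49 in resting cells.

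Of the 85 other biogenesis genes, cycloheximide alone gave 35 lower and 2 higher in activated cells (median -0.44), and 30 higher and 1 lower in resting cells (median 0.48). The kinase Riok1 had the smallest p in activated cells and rose (1.63 ± 0.20), and Ubtf, the RNA polymerase I transcription factor UBF, fell (-1.43 ± 0.20). For the difference between the states 49 of 85 were called, all more negative in activated cells. Cytosolic ribosomal protein genes were lower in both states relative to the typical mRNA, 67 of 80 in activated and 51 in resting cells, and 1 was called for the difference.

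Intron counts, which can come from unspliced RNA and from stable RNAs held in introns, could be tested for 44 of the 48 members. On activation at 0 h 28 were called higher and none lower (7.92% and 5.6% of 10750 genes tested on introns), with a median of 1.48 against 0.10 for all. Introns of Polr1b stood at 96.2, 40.2 and 57.4 CPM in activated and 8.05, 6.66 and 9.95 CPM in resting cells, with no overlap (3.06 ± 0.29, edgeR adjusted p = 5.22e-14). Introns of Npm1 stood at 165, 84.9 and 147 CPM against 78.4, 57.5 and 50.2 CPM, also without overlap. They rose by 1.16 ± 0.28 (edgeR adjusted p = 0.00145), where its exon counts did not pass the test. Introns of Rrp1b (3.56 ± 0.36), Rrp12 (2.75 ± 0.36), Fbl (2.29 ± 0.41), Noc2l (2.16 ± 0.36), Dkc1 (2.00 ± 0.45), Utp20 (2.00 ± 0.26), Ddx21 (1.80 ± 0.37), Heatr1 (1.75 ± 0.29) and Polr1a (1.20 ± 0.28) rose. Without replicate 2 the count was 13. Per ERCC count 28 introns were called (6.07% of all), 5 without replicate 2 and 8 without replicate 4.

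After 3 h of triptolide in activated cells introns of 16 members were lower and those of 4 higher (21.7% and 15.7% of all), with a median of -0.75. Introns of Polr1a went from 252, 162 and 165 CPM to 42.7, 33.4 and 35.5 CPM, with no overlap (-2.35 ± 0.33, edgeR adjusted p = 7.33e-09). Its exon counts were not called (0.35 ± 0.20), but the 2 changes come from separate fits, each relative to its own typical gene. Per ERCC count both were called lower, introns at -5.04 and exons at -1.30. Introns of Npm1 held 39.7, 33.4 and 33.4 CPM at 3 h and 15.5, 32.8 and 33.9 CPM in the triptolide 0 h libraries (0.42 ± 0.34), which were already below the untreated 0 h libraries given above, so this comparison does not measure their loss. Introns of Rrp1b (-2.97 ± 0.45), Heatr1 (-2.41 ± 0.35), Gar1 (-2.17 ± 0.90), Nop2 (-2.09 ± 0.44), Noc2l (-1.70 ± 0.50) and Rrp12 (-1.43 ± 0.41) fell. Per ERCC count 34 were lower and none higher (66.8% and 4.13% of all), and without replicate 2 the count called relative to the typical mRNA was 12 and without replicate 4 it was 13.

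Introns called higher were those of Ncl (2.33 ± 0.74), Tsr1 (2.28 ± 0.81), Nop58 (1.86 ± 0.66) and Ltv1 (1.47 ± 0.44), and per ERCC count none of these was called (0.17, 0.02, -0.52 and -1.12). None of the 4 was called without replicate 2 either, with changes of 1.19, 1.14, 0.95 and 1.24. Their mean intron levels in activated cells were lower in the triptolide 0 h libraries than in untreated 0 h libraries. Those means were 196 against 253 CPM for Ncl, 37.9 against 76.7 for Tsr1, 128 against 249 for Nop58 and 9.50 against 33.3 for Ltv1. At 3 h of triptolide Ltv1 averaged 24.9 CPM, below its untreated 0 h mean, and Ncl, Tsr1 and Nop58 averaged 975, 172 and 458 CPM. Introns of Ncl went from 54.6 to 1712 CPM in replicate 2, from 227 to 697 CPM in replicate 3 and from 306 to 515 CPM in replicate 4. Ncl, Tsr1 and Nop58 are among 6 members that carry snoRNA genes on their own strand in the annotation (GENCODE on mm10), with Nop56, Dkc1 and Wdr43. Together they hold 18 snoRNA genes, 11 of them wholly within introns, such as Snord82 in Ncl (chromosome 1, 86356261 to 86356330) and Snord91a in Tsr1 (chromosome 11, 74905424 to 74905516). The rest overlap annotated exons of Nop56, Nop58 or Ncl. Exon counts of those members may therefore hold snoRNA reads as well, which was not tested. Small nucleolar RNAs are cut out of their host's introns and are long-lived. Relative to the typical gene and to the triptolide 0 h libraries, introns of these 6 hosts had 3 called higher at 3 h of triptolide. All 3 calls were lost without replicate 2, and none was lower (median 1.92). Those of the other 38 members had 1 higher and 16 lower (median -0.99). On activation 1 of the 6 was higher (median 0.35), against 27 of 38 (median 1.59). Counts from a snoRNA and from unspliced RNA of its host intron cannot be told apart here, and a test of hosts against other members was not made.

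**Figure D5:**
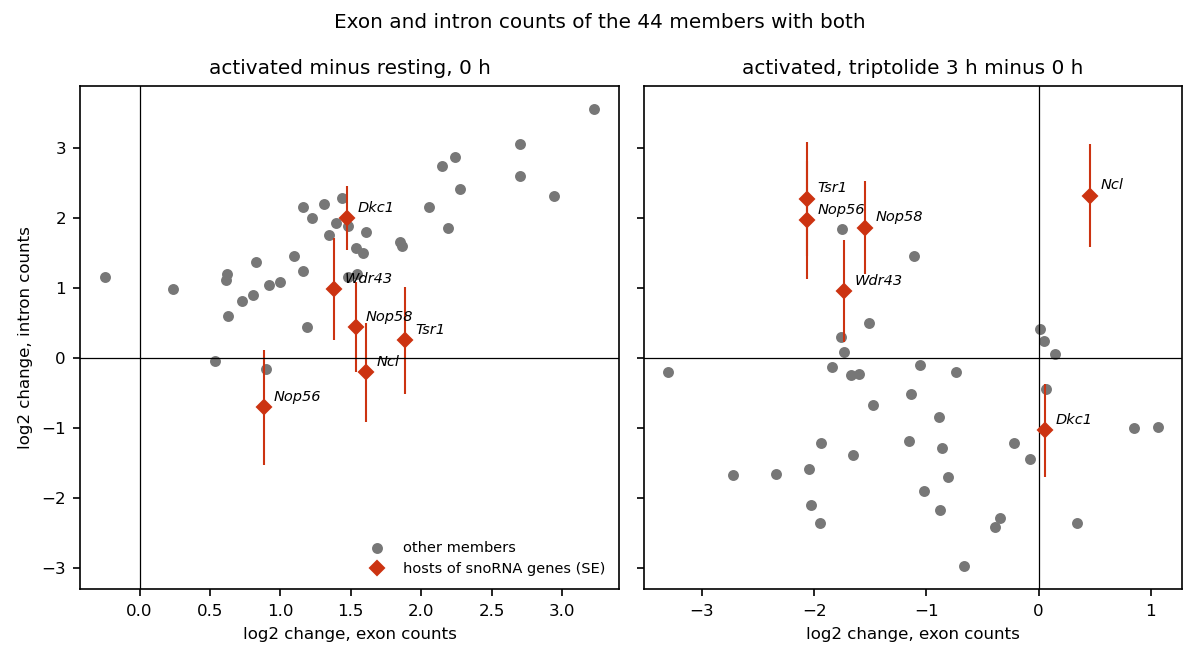
Log2 change in intron counts (y axis) against that in exon counts (x axis) of the 44 members with both, on activation at 0 h (left) and after 3 h of triptolide in activated cells (right). Each axis is relative to the typical gene of its own fit. Red diamonds with SE bars are the 6 hosts of snoRNA genes, whose introns have a median change of 1.92 under triptolide against -0.99 for the other 38 members. Per ERCC count no host was called higher, with changes from -3.47 (Dkc1) to 0.17 (Ncl), and no host was called higher without replicate 2.

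Exonic bases of 22 members are shared with another annotated gene, for 14 of them a protein-coding one, nearly all on the opposite strand. The share is largest for Tsr1 (32.3%, with Srr), Noc2l (20.9%, with Samd11) and Wdr3 (15.7%, with Spag17). Whether counting used the strand is not given in the sources used here, so reads of these genes and of their antisense partners cannot be told apart.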

How the data were processed

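The libraries hold total RNA from CD4+ T cells with ERCC spike-ins. Whole-number exon and intron read counts per gene were deposited by the authors. The submitters' processing notes name TopHat2 2.0.13, Bowtie 1.1.1.0, HTSeq and mm10, and do not say in the sources used here whether counting used the strand. Another 315 columns of per-sample values were not used, and rows that name no gene, 75.8% to 97.3% of the deposited counts in a library, were left out of library sizes. The 48 members, the roles and the other lists were chosen with earlier results of these data known, and the lists are described by counts and medians without a test.

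Genes were kept with filterByExpr (10741 for exons, 10750 for introns), scaled with TMM factors and fitted with robust quasi-likelihood models in edgeR 4.0.16 (R 4.3.3) over all 105 libraries as 35 group means. Calls were made where the p adjusted over all genes tested (Benjamini-Hochberg) was under 0.05, and SE is the log2 change divided by the square root of F. CPM uses TMM-scaled library sizes. In the fit per ERCC count the library size was the summed ERCC count, and the percentage left is a ratio of group means on that scale. Named members are, in each role and comparison, that with the smallest p and that with the highest mean CPM, with any called against the main direction. In the activation and transcription block comparisons any member may be named. Other members named were chosen after their values were seen.

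The replicate numbers, which the labels give, were checked for pairing: same-numbered libraries deviated together within a state (mean correlation 0.375 in activated and 0.21 in resting cells) but not across states (-0.079). No pair of libraries within a group looked like a copy. Pairs from different groups were not compared, and the check says little for the shallowest library. In simulated counts for activated cells at 3 h of triptolide (10588 genes), the test recovered 34 of 100 genes changed 2-fold and 88 of 100 changed 4-fold, with 4 false calls. Simulated libraries were independent and no other genes changed, whereas 47.6% of genes were called in the data. The false calls therefore do not cover linked replicates or a broad shift. Alternatives were DESeq2 1.42.0, RLE factors, plain library size, no filter, ERCC scaling, coding-sequence counts, replicate blocks, only the groups compared, and each replicate left out. Leaving out activated 3 h triptolide replicate 3, and replicates under ERCC scaling, were chosen after seeing the data.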

Additional observations from a re-analysis of the deposited data

Results flagged for a closer look

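Effects that differed between activated and resting cells by a test of the difference itself are collected here. For 3 h of triptolide 3 of 48 members were called in the fit without a block, with less loss in activated cells: Nop10 (2.77), Utp15 (1.48) and Dkc1 (1.34). Of all genes 4.07% were called in that direction and 2.4% in the other, 6.47% together, so the count of members is near that share. For 3 h of cycloheximide alone 33 members were called, all with a more negative change in activated cells (8.67% of all genes, with 7.95% the other way). That change is against untreated 3 h cells, where the members' median had moved from 0 h by 0.70 in activated and -0.49 in resting cells. Those named were Rrp1b (-2.76), Rrp9 (-2.22), Rrp12 (-2.08), Nhp2 (-2.04), Nolc1 (-1.86), Nop2 (-1.83), Polr1b (-1.69), Noc2l (-1.50), Nop56 (-1.43), Polr1a (-1.31) and Dkc1 (-0.99), as differences of log2 changes. Without replicate 4 these counts were 1 and 10, and with a block for the replicate number the first included members with more loss in activated cells.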

How the results depend on the processing

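Of 4814 alternative values for named genes 4346 kept their side of the threshold, and where they were called their direction too. Another 238 were no longer called, 211 became called and 19 changed sign. Direction was not compared for values called in neither fit. Of 430 alternative counts 372 stayed within 1.5 times. DESeq2, RLE factors, library size, no filter, a fit without the 2 shallowest libraries, and a fit without replicate 3 of activated 3 h triptolide moved no count further than that. The cause of the other moves was not tested. With only the groups compared the counts called were 13 for untreated activated cells over 3 h, 4 for untreated resting cells, 7 for DRB at 1 h and 13 for cycloheximide added to DRB. Introns of Dkc1 and Gar1 under triptolide were not tested in that fit. With the replicate block the counts were 37 (untreated activated), 13 (untreated resting), 5 (difference in triptolide loss, 4 with less and 1 with more loss in activated cells) and 28 (harringtonine alone, resting). With the replicate block within each state they were 44, 24, 7 (4 with less and 3 with more loss) and 31. The blocks moved no other count by over 1.5 times. However, the block within each state sets activated against resting cells at the level of replicate 2 alone. Its counts for activation, though among the 430, are therefore no check of those comparisons. Coding-sequence counts gave 11 for DRB at 1 h. With ERCC scaling the counts were 1 for untreated resting cells, 36 for triptolide at 1 h, 28 and 45 for DRB at 1 and 3 h, 47 for triptolide in resting cells, 1 for the difference in triptolide loss, 10 and 41 for cycloheximide alone in activated and resting cells, 10 and 43 for harringtonine alone, and 34 for introns under triptolide.

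Leaving out each replicate in turn gave 0 to 26 for untreated activated cells, 0 to 10 for untreated resting cells, 14 to 24 for triptolide at 1 h, 4 to 15 for DRB at 1 h, 1 to 3 for the difference in triptolide loss, and 14 to 24 for cycloheximide added to DRB (25 without activated 3 h triptolide replicate 3 alone). It gave 13 to 27 and 7 to 20 for cycloheximide alone in activated and resting cells (23 in resting cells without activated 3 h triptolide replicate 3 alone), 11 to 22 and 5 to 17 for harringtonine alone, 10 to 34 for the difference in cycloheximide change, and 13 to 28 and 12 to 14 for introns on activation and under triptolide, where the 12 without replicate 2 were all lower. Per spike-in count the ranges were 22 to 40 and 21 to 40 for activation at 0 h (untreated, triptolide), 0 to 30 and 0 to 4 for untreated activated and resting cells, 8 to 31 for DRB at 1 h, 22 to 43 and 16 to 38 for cycloheximide added to triptolide and to DRB, 19 to 39 and 18 to 37 for harringtonine added to triptolide in activated and resting cells, 0 to 14 and 0 to 11 for cycloheximide and harringtonine alone in activated cells, 0 to 38 for the difference in cycloheximide change, and 5 to 26 for introns on activation.

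Changes of sign between values called in neither fit were not counted. All 19 that were counted came with ERCC scaling. They were Dkc1 (-1.65), Nop10 (-0.86), Npm1 (-1.65), Nvl (-0.61), Polr1a (-1.30) and Utp20 (-0.82) after 3 h of triptolide in activated cells, Npm1 (-0.14) after 1 h of DRB, and Ddx21 (-1.07), Dkc1 (-1.25), Nop10 (-0.56) and Polr1a (-1.29) after 3 h of DRB. In resting cells they were Nvl (-0.41), Polr1a (-1.40) and Polr1b (-1.17) after triptolide, Nvl (0.05) with cycloheximide added, and Npm1 (0.03) with harringtonine alone. In introns they were Ltv1 (-1.12), Nop58 (-0.52) and Npm1 (-1.99) under triptolide. What depth limits was not measured beyond the fit without the 2 shallowest libraries (6300 and 141028 exon counts). In that fit 339 of 346 named values kept their side of the threshold, and where they were called their direction too.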

Other observations

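Members with and without CACGTG in the promoter window had these values after transcription was blocked, as a description with no test. After 3 h of triptolide in activated cells 8 of the 10 members with the motif were lower and 1 higher (median -1.74), and of the 32 without it 23 were lower and 2 higher (median -1.10). In resting cells 9 of 10 were lower (median -1.49), against 18 of 32 (median -1.03). For cycloheximide on top of triptolide (activated cells) 9 of 10 were higher (median 1.36), against 20 of 32 (median 0.98).

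Mitochondrial ribosomal protein genes, whose products build a separate ribosome, gave 42 of 77 called higher and 2 lower on activation at 3 h (median 0.70). With cycloheximide alone 28 were lower and 1 higher in activated cells, and 17 higher and 2 lower in resting cells (median 0.37). The difference between the states was called for 17, all more negative in activated cells.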
